A study of Mus musculus with 6 samples.

Results

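The 9 genes described here encode the transcription factors usually taken as the core of hepatocyte identity. They are Hnf4a, the forkhead genes Foxa1, Foxa2 and Foxa3, the C/EBP genes Cebpa and Cebpb, and the nuclear receptor genes Nr5a2, Nr1i2 and Nr1i3. They were chosen by name and not by their values here, although earlier results of these data were known, and all 9 were found among the 12393 genes that had a probe set with exactly 1 gene symbol. A probe set is the group of oligonucleotides on an array that together measure a transcript. The 9 genes had 17 such probe sets, and each gene was represented by the one with the highest mean over the 6 arrays, with the others given beside it.

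Hepatocytes keep their character through a network of transcription factors that bind each other's regulatory regions as well as those of the genes for plasma proteins and metabolic enzymes. FOXA proteins are pioneer factors that open compacted chromatin, HNF4A is a nuclear receptor needed for most liver-specific transcription, and C/EBP alpha keeps hepatocytes differentiated and quiescent. LRH-1, encoded by Nr5a2, controls bile acid and cholesterol genes, while PXR (Nr1i2) and CAR (Nr1i3) sense drugs and other foreign compounds and induce the enzymes that clear them.

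The samples were 3 livers of mice lacking SIRT7, a nuclear NAD-dependent deacylase, and 3 livers of wild-type mice, each measured on its own array. The title of the study ties SIRT7 to MYC activity and tumour suppression. The sources used here state no strain, age, sex, diet, construction of the Sirt7 allele or time of dissection, and call the handling of all animals the same. Nor do they state that each liver of a group is from its own mouse, and the p-values below speak only of the scatter among these 6 arrays, part of which could be technical.

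Sirt7 itself was at 2.38, 3.10 and 2.86 in knockout replicates 1 to 3, against 9.85, 9.80 and 9.57 in wild-type replicates 1 to 3, on the log2 scale of the deposited values. None of the 9 genes lies on chromosome 11, which carries Sirt7. The arrays differed little in their medians (5.69 to 5.77). The third array of each group lay close to the other group. Across the tested genes, knockout replicate 3 correlated best with wild-type replicate 3 (0.979), against 0.962 and 0.976 with the other knockout arrays. Wild-type replicate 3 correlated at 0.972 to 0.979 with the knockout arrays, against 0.968 and 0.971 with the other wild-type arrays. Some results are therefore also given without either, and a result printed without such a value may still move. Hepatocyte markers were bright in every liver, with albumin (Alb) at 12.41, 12.45 and 13.10 in knockout and 12.80, 12.90 and 12.94 in wild-type livers.

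The promoters of the 4 genes on which the results turn most are shown first. They are those of Hnf4a, whose probe sets disagreed, and of Foxa2, with the largest difference of the 9 by the brightest probe set. The others are those of Cebpa, whose groups did not overlap, and of Nr5a2, whose probe sets all pointed 1 way by unequal amounts. The sequences come from RefSeq on build GRCm38.p6, are written 5′ to 3′ on the strand of the gene, and end at the base before the annotated start unless stated. Capitals mark the matches of 7 short motifs searched on both strands.
Hnf4a, upstream start: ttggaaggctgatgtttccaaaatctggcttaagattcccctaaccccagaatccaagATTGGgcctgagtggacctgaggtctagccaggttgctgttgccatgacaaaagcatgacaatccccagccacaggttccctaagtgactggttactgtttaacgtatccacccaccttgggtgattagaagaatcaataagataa
Hnf4a, downstream start: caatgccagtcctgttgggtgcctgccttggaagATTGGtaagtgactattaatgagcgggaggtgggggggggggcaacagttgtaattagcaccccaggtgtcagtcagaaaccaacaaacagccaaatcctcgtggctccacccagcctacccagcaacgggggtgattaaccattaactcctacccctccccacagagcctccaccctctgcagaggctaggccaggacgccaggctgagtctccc
Foxa2: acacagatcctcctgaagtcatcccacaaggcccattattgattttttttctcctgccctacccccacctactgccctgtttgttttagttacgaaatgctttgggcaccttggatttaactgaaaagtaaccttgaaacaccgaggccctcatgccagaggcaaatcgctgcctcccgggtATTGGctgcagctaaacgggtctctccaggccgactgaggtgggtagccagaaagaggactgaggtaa
Cebpa: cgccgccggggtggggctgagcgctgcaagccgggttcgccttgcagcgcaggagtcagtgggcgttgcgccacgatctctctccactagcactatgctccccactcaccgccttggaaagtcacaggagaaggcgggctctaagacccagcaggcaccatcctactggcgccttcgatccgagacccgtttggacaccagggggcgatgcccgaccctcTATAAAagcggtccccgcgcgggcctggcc
Nr5a2: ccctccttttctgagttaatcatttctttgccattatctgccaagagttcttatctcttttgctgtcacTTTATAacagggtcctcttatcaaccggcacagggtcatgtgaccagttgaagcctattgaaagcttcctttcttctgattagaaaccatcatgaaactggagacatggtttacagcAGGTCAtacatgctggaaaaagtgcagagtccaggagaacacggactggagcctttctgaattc
The first Hnf4a sequence, chr2:163506607-163506810 on the plus strand, lies before the upstream start and stops 46 bases short of it, where the annotated gene begins. The other, chr2:163546905-163547154 on the plus strand, lies before a start 40298 bases further downstream, inside the gene. The Foxa2 sequence is chr2:148046970-148047219 on the minus strand, before the first of 3 annotated starts that span 1505 bases. The Cebpa sequence is chr7:35119043-35119292 on the plus strand, and the Nr5a2 sequence is chr1:136960449-136960698 on the minus strand, before the first of 2 starts that lie 6818 bases apart.

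The motifs were searched in windows from 250 bases before to 50 bases after each annotated start, 13 windows for the 9 genes and 32851 in the whole table. The E-box CACGTG, bound by MYC with its partner MAX, was found in 1 member window, that of Nr1i3, and in 7.15% of all windows. The core of ETS factor sites, CCGGAAG, was in 0 member windows and 8.86% of all. TATAAA was in 5 member windows (13.6% of all) and CCAAT in 7 (37.4%). The forkhead core TGTTTAC was in 1 member window, that of Foxa1 (3.65%), the nuclear receptor core AGGTCA in 1, that of Nr5a2 (16.3%), and the C/EBP core TTGCNNAA in 1, before the downstream start of Nr5a2 (10.8%). No motif searched contains another, and a match is a stretch of letters, not a shown binding site.

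Of the 9 factors, 7 were lower and 2 higher in knockout livers by the mean of their brightest probe set, and limma called 0 of them at an adjusted p under 0.05 (background 0.024% of 8343 tested genes). The median difference of the 9 was -0.18 on the log2 scale, beside -0.03 over all tested genes, of which 54.6% were below 0. The FOXA genes, Cebpa, Cebpb, Hnf4a and Nr5a2 lay below 0, and the xenobiotic receptor genes Nr1i2 and Nr1i3 above. At an unadjusted p under 0.05 on the brightest probe set there was 1 member, Foxa2, lower in knockout livers (background 6.46% in either direction, 3.42% lower and 3.04% higher). Dimmer probe sets of Nr5a2 also fell under that threshold and are given below. On the brightest probe sets the groups did not overlap in 1 member, Cebpa, also lower (background 9.74% in either direction, 5.48% lower and 4.27% higher). Without wild-type replicate 3 the median of the 9 was -0.24 and 0 were called, with the differences closer to 0 for Hnf4a (-0.07) and Nr5a2 (-0.07) and further from it for Cebpb (-0.33). Without knockout replicate 3 the median was -0.31 and 0 were called, with larger differences for Hnf4a (-0.27), Foxa3 (-0.75) and Cebpb (-0.62) and a smaller one for Nr1i3 (0.20). With the mean of all probe sets of a gene as its value, 5 of the 9 were lower and 4 higher, with a median of -0.31. That mean takes in probe sets of any brightness, a dim one of Cebpb among them. All 9 passed the filter on dim genes, a mean log2 value of at least 4.

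**Figure D1:**
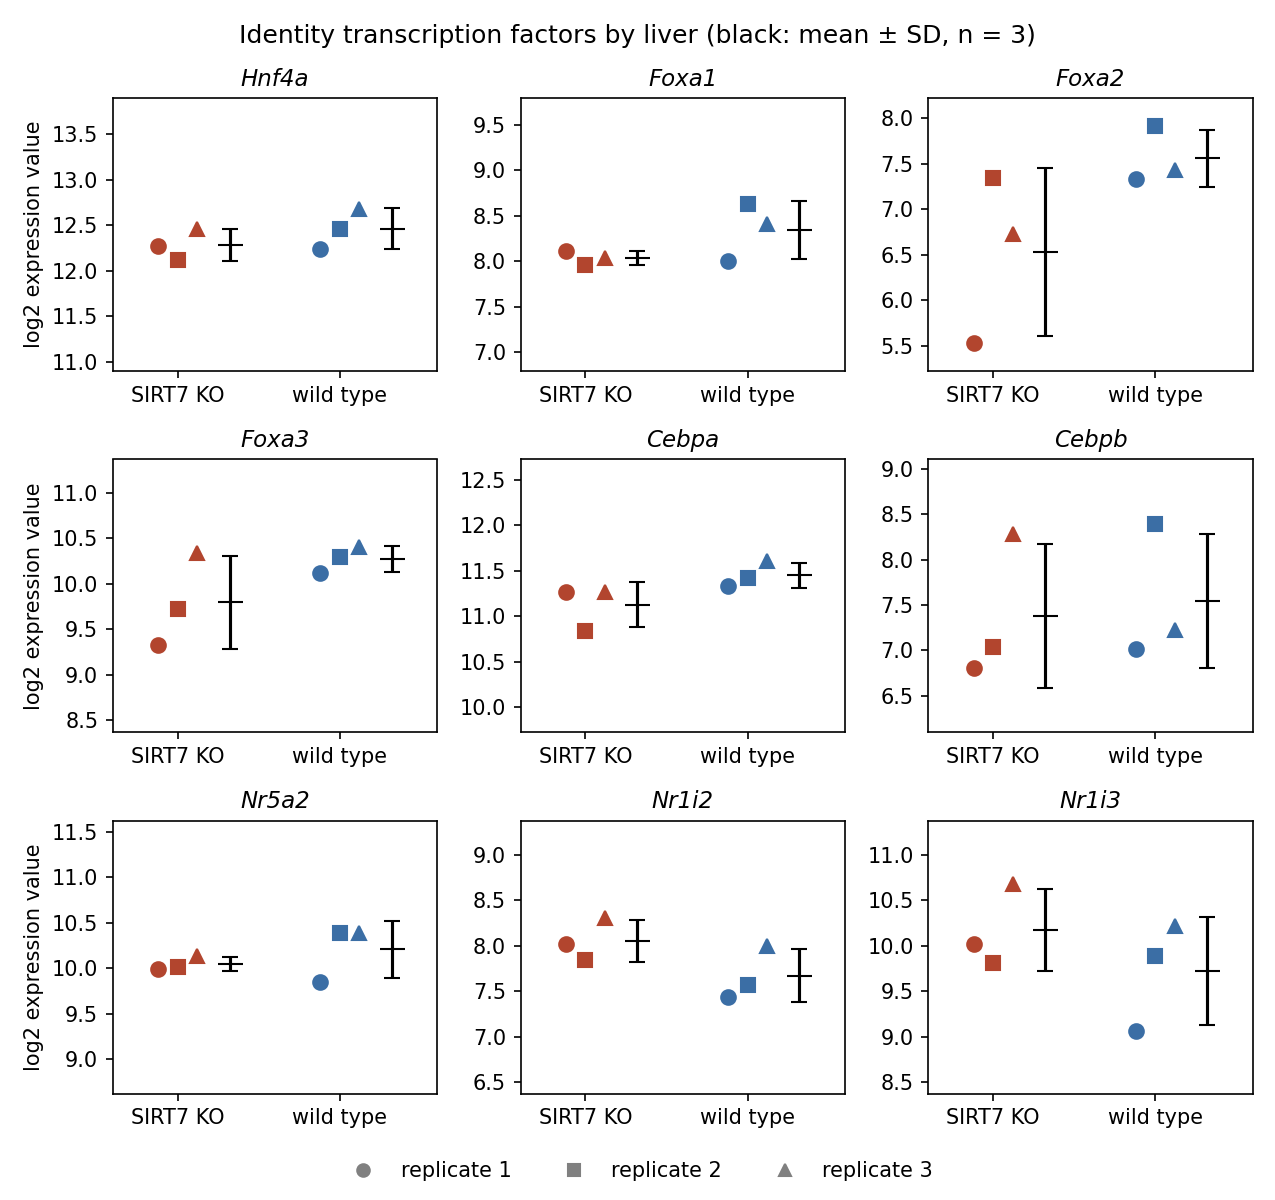
Log2 expression value (y axis, 3 units high in every panel) of the brightest probe set of each factor in 3 SIRT7 knockout livers (red, left) and 3 wild-type livers (blue, right), with symbols for replicate number and black bars for mean ± SD. Cebpa is the only panel in which every knockout liver lies below every wild-type liver, and the spread is widest in Foxa2 and Cebpb.

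Hnf4a, the nuclear receptor at the centre of the network, was at 12.27, 12.11 and 12.46 in knockout livers, against 12.24, 12.46 and 12.68 in wild-type livers (probe set 1427001_s_at). The groups overlapped over most of their range. The means were 12.28 ± 0.17 and 12.46 ± 0.22 (SD over 3 livers each). They differed by -0.18, with a 95% interval from -0.64 to 0.28, or 0.643-fold to 1.21-fold (limma adjusted p = 0.863).

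The other 3 Hnf4a probe sets pointed the other way. Probe set 1427000_at was at 11.17, 11.25 and 10.51 in knockout and 11.03, 10.70 and 10.40 in wild-type livers, a difference of 0.27. The differences were 0.37 for 1421983_s_at and 0.41 for 1450447_at, and no interval of the 4 excluded 0. With the mean of the 4 probe sets as the value of Hnf4a, the difference was 0.22. A spread of this kind was common: among 3117 genes with several probe sets at or above the filter, 47.5% had probe sets of both signs. The range of the Hnf4a differences, 0.589, was exceeded in 15% of these genes. Nothing in the sources says which Hnf4a transcripts each probe set detects.

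The 3 FOXA genes were lower on average in knockout livers. Foxa2, which in adult liver is tied to fasting metabolism and bile acid handling, was at 5.53, 7.34 and 6.72 in knockout livers, against 7.33, 7.92 and 7.43 in wild-type livers. Knockout replicate 1 lay far below all other livers, while knockout replicate 2 was level with the lowest wild-type liver. Knockout livers averaged 6.53 ± 0.92 and wild-type livers 7.56 ± 0.31 (SD, n = 3 each). The mean difference was -1.03 (0.489-fold) with a 95% interval from -1.98 to -0.08 (limma unadjusted p = 0.0373, adjusted p = 0.769). Of all tested genes, 4.72% had a smaller p. Without knockout replicate 1 the difference was -0.53, and without wild-type replicate 3 it was -1.09.

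Foxa3, the FOXA gene with the strongest link to adult liver and glucose supply, was at 9.33, 9.72 and 10.34 in knockout livers, against 10.12, 10.30 and 10.41 in wild-type livers. Knockout replicate 3 lay within the wild-type range and the other knockout livers below it. The difference was -0.48 (interval -1.09 to 0.13, limma adjusted p = 0.794). It was -0.24 without knockout replicate 1 and -0.75 without knockout replicate 3.

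Foxa1, which shares many binding sites with Foxa2, was at 8.11, 7.95 and 8.03 in knockout livers, against 8.0, 8.63 and 8.40 in wild-type livers. The knockout livers were nearly equal (SD 0.08) and overlapped the wild-type group through wild-type replicate 1. The difference was -0.31 (interval -0.80 to 0.17, limma adjusted p = 0.797), or -0.17 without wild-type replicate 2.

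Foxa1 and Foxa2 are also active in bile duct cells, so duct markers are given beside them. Of 16 duct markers 4 were tested, with 2 higher and 2 lower in knockout livers. Of the defining markers, Epcam was under the filter in mean (3.69 over 6 livers). Sox9 differed by -0.91 with every knockout liver lowest (limma adjusted p = 0.746), and Krt19 by 0.58 with overlap (adjusted p = 0.775). Krt7 differed by -0.15 (adjusted p = 0.911). The summed level of the measured duct markers, as log2 of the sum, was 9.47 to 10.10 in knockout and 9.39 to 9.81 in wild-type livers. Most of this sum came from Aqp1, with means of 9.42 in knockout and 9.17 in wild-type livers, so it says little of the other markers. The part of duct cells in the FOXA values was not tested. In whole liver, fewer cells of a type and less RNA per cell cannot be told apart.

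On the brightest probe sets, Cebpa was the 1 factor in which every knockout liver lay below every wild-type liver. It was at 11.27, 10.84 and 11.27 in knockout livers, against 11.33, 11.41 and 11.60 in wild-type livers. The gap between the highest knockout and the lowest wild-type liver was narrow, and knockout replicate 2 lay lowest. The means were 11.13 ± 0.25 and 11.45 ± 0.14 (SD, n = 3 each), a difference of -0.32 (0.8-fold) with an interval of -0.78 to 0.14 (limma adjusted p = 0.796). Without knockout replicate 2 the difference was -0.18. With array weights, which rest mainly on knockout replicate 2 and wild-type replicate 2, limma called Cebpa (-0.53, adjusted p = 0.0331) and Foxa3 (-0.55, adjusted p = 0.0359). That fit called 21% of all tested genes, 13.1% as lower, so 2 of 9 members is near its background.

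Cebpb, which is induced in liver by inflammation, fasting hormones and injury, varied more within groups than between them. It was at 6.81, 7.04 and 8.28 in knockout livers, against 7.02, 8.39 and 7.22 in wild-type livers. Knockout replicate 3 and wild-type replicate 2 stood more than 1 log2 unit above the rest of their groups. The difference was -0.17 with the widest interval of the 9, -1.21 to 0.87 (limma adjusted p = 0.958). The sign turned without knockout replicate 1 (0.12) or wild-type replicate 2 (0.26). A second probe set, 1427844_a_at, lay under the filter with a mean of 3.43 and differed by 0.24.

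Acute phase genes, many of them known C/EBP beta targets, are set beside it. Of 28 tested, 22 were lower and 6 higher in knockout livers, with a median of -0.20 and 0 called, or -0.04 with 14 on each side without wild-type replicate 2. Their median deviation from the mean over all 6 livers was highest in wild-type replicate 2 (0.29), which was also high in Cebpb and in its relative Cebpd (7.44, where the remaining 5 livers were at 5.74 to 6.22). In knockout replicate 3, the other liver with high Cebpb, it was 0.01, above the -0.15 and -0.19 of the remaining knockout livers. Among the 28 genes the smallest p belonged to Saa1 (-1.04, limma adjusted p = 0.725), Saa2 (-1.44, adjusted p = 0.746) and Orm3 (-1.45, adjusted p = 0.76). Without wild-type replicate 2 these differed by -0.863, -1.03 and -0.835, so they stayed lower where the median of the list came close to 0.

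Nr5a2 is the factor whose value depended most on the probe set. On the brightest, 1456521_at, it was at 9.99, 10.01 and 10.13 in knockout livers, against 9.85, 10.39 and 10.39 in wild-type livers. The knockout livers fell inside the wild-type range. The difference was -0.16 (interval -0.64 to 0.31, limma adjusted p = 0.879), and it lay between -0.34 and -0.07 without 1 liver.

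The other 3 Nr5a2 probe sets were lower in knockout livers by larger amounts. Probe set 1449707_at was at 5.67, 5.69 and 6.42 in knockout and 7.16, 7.17 and 6.66 in wild-type livers, with no overlap. It differed by -1.07 (0.476-fold, interval -1.67 to -0.47). In the limma fit over all probe sets its unadjusted p was 0.00298 and its adjusted p 0.656. Probe set 1449706_s_at was at 6.42, 7.10 and 7.11 in knockout and 7.96, 7.93 and 7.34 in wild-type livers, again with no overlap. Its difference was -0.87 (limma unadjusted p = 0.0103, adjusted p = 0.785). Probe set 1420410_at differed by -0.54 (adjusted p = 0.809), and its groups overlapped at wild-type replicate 3.

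All 4 Nr5a2 probe sets therefore had a negative mean difference, and none was called. With the mean of the 4 probe sets as the value of Nr5a2, the difference was -0.66 (limma adjusted p = 0.724). Over all 13143 probe sets at or above the filter, the groups lay apart with knockout lower in 5.16%, limma called 0.0152%, and 6% had an unadjusted p under 0.05. The range of the Nr5a2 differences, 0.908, was exceeded in 3.14% of the genes with several probe sets. Within each liver the log2 gap between 1449707_at and 1456521_at was -4.32, -4.32 and -3.71 in knockout and -2.69, -3.22 and -3.73 in wild-type livers. This contrast was chosen after its values were seen, and an exact 2-sided permutation test over the livers gave p = 0.2, where the smallest p possible was 0.1. The sources used here do not say which of the annotated Nr5a2 transcripts each probe set detects.

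**Figure D2:**
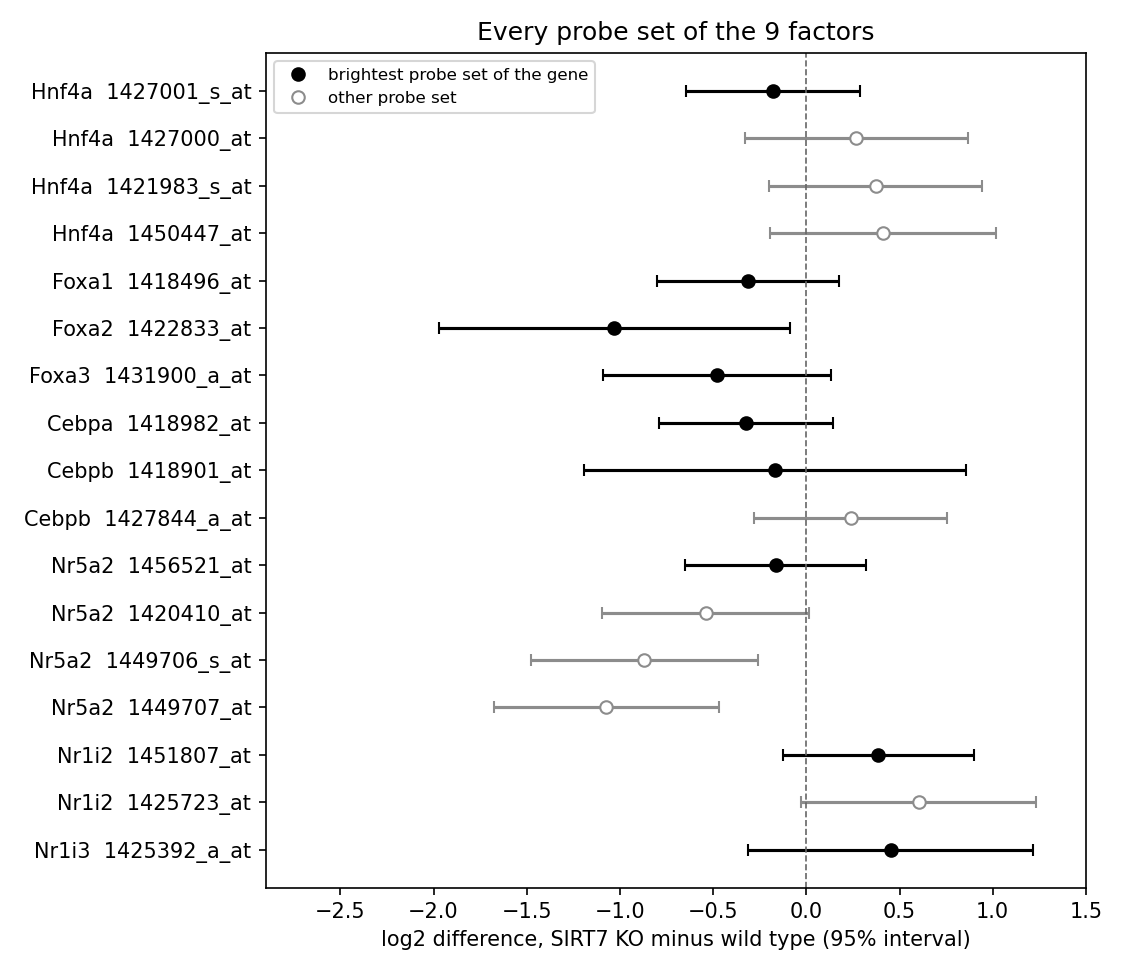
Log2 difference of SIRT7 knockout minus wild type (x axis) with its 95% interval from limma, for all 17 probe sets of the 9 factors. Filled points are the brightest probe set of a gene and open points the others. Hnf4a has probe sets on both sides of 0, the 4 of Nr5a2 run from -0.16 to -1.07, and both of Nr1i2 lie above 0.

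The xenobiotic receptor genes were the only members with a higher mean in knockout livers. Nr1i2, which encodes PXR, was at 8.01, 7.85 and 8.31 in knockout livers, against 7.44, 7.57 and 8.0 in wild-type livers. Wild-type replicate 3 overlapped the knockout group and the other wild-type livers lay below it. The difference was 0.39 (1.31-fold, interval -0.12 to 0.89, limma adjusted p = 0.796). Its second probe set, 1425723_at, pointed the same way, at 6.55, 5.95 and 6.85 in knockout and 5.49, 6.13 and 5.92 in wild-type livers, a difference of 0.60. Without wild-type replicate 3 the Nr1i2 difference was 0.55 (adjusted p = 0.401).

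Nr1i3, which encodes CAR, was at 10.02, 9.81 and 10.68 in knockout livers, against 9.06, 9.88 and 10.21 in wild-type livers. Wild-type replicate 1 was the lowest of the 6 and knockout replicate 3 the highest. The difference was 0.45 (1.37-fold, interval -0.32 to 1.22, limma adjusted p = 0.807). Leaving out wild-type replicate 1 gave 0.12 and leaving out wild-type replicate 3 gave 0.70, while leaving out knockout replicate 3 gave 0.20.

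The factors did not all rank the livers alike. Knockout replicates 1 and 2 were each the lowest liver in 3 of the 9 genes, and so was wild-type replicate 1, in which Nr5a2, Nr1i2 and Nr1i3 were lowest. Wild-type replicate 3 was highest in 4 genes and wild-type replicate 2 in 3, while knockout replicate 3 was highest in Nr1i2 and Nr1i3. The median deviation of the 9 genes was -0.10, -0.23 and 0.09 in knockout replicates 1 to 3 and -0.19, 0.26 and 0.27 in wild-type replicates 1 to 3. By this median alone wild-type replicate 1 lay among the knockout livers. It was above the mean over the livers in Foxa2 (0.29), Foxa3 (0.08) and Cebpa (0.04), and below it in the remaining factors. These include Nr1i2 and Nr1i3, in which the knockout livers were higher on average. Across the tested genes wild-type replicate 1 correlated best with wild-type replicate 2 (0.984).

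**Figure D3:**
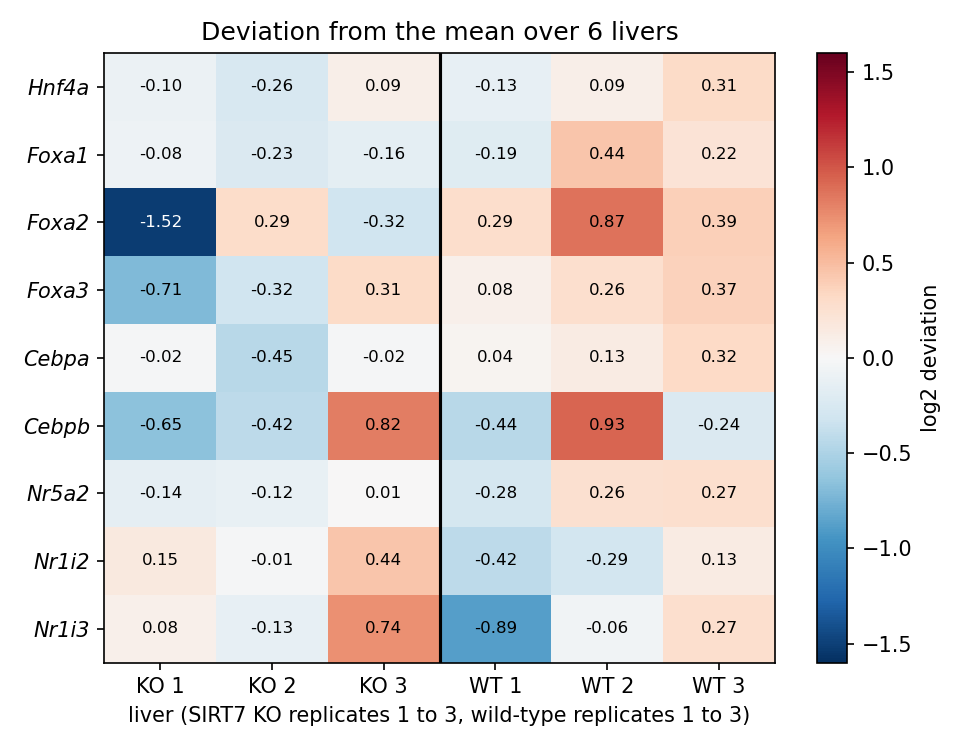
Log2 deviation of each factor (rows) from its mean over 6 livers, for knockout replicates 1 to 3 and wild-type replicates 1 to 3 (columns, separated by a line), with red above and blue below the mean. Foxa2 in knockout replicate 1 (-1.52) is the lowest value and Cebpb in wild-type replicate 2 (0.93) the highest.

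Other transcription factors of the hepatocyte were compared next. Of 34 listed, 27 were tested, with 11 higher and 16 lower in knockout livers, a median difference of -0.05 and 0 called by limma. The groups did not overlap in 3 of the 27, all lower in knockout livers (background 5.48% lower and 4.27% higher). They were also the 3 with the smallest p, and choosing by p favours genes whose groups lie apart. Gata4, a zinc finger factor that is also active in endothelial and stellate cells, was at 6.21, 6.55 and 6.78 in knockout, against 7.82, 7.63 and 6.79 in wild-type livers. Wild-type replicate 3 was level with knockout replicate 3, so the gap between the Gata4 groups was very narrow, and the difference was -0.90 (limma adjusted p = 0.746).

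Nfia, a nuclear factor I gene, differed by -0.52 (adjusted p = 0.76), and Hhex, a homeobox gene needed for liver budding, by -0.49 (adjusted p = 0.772). The receptor partner gene Rxra, whose product pairs with CAR and PXR, differed by 0.01 (interval -0.50 to 0.52). Nr1h4, the gene of the bile acid receptor FXR, differed by 0.02 (interval -0.42 to 0.46), and Onecut1 by 0.12 (interval -0.56 to 0.80). The sign of each of these 3 turned when single livers were left out. Ppara, the fatty acid receptor gene, differed by 0.44 (interval -0.05 to 0.94, adjusted p = 0.775).

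Genes known as targets of the factors are described by list. The lists share genes, so their medians are not separate results. Cps1 and Tat, for instance, are on the HNF4A, FOXA, C/EBP and hepatocyte marker lists. Of 41 HNF4A targets 36 were tested, 10 higher and 26 lower, with a median difference of -0.15. The smallest p belonged to Serpinc1, the antithrombin gene, at 12.17, 12.75 and 12.40 in knockout and 12.95, 12.93 and 13.32 in wild-type livers, with no overlap (-0.63, limma adjusted p = 0.76). Ces1d, a carboxylesterase gene, differed by 0.48 and G6pc, the glucose-6-phosphatase gene, by -0.47. The 21 tested FOXA targets, which include Hnf4a and Foxa3 themselves, split into 10 higher and 11 lower (median -0.16, or 0.06 with the mean of all probe sets of a gene). Of the 24 tested C/EBP targets, 5 were higher and 19 lower (median -0.15), with Fasn, the fatty acid synthase gene, at 0.60 and Tdo2, the tryptophan dioxygenase gene, at -0.44. Limma called 0 genes of these lists. After quantile normalization of the arrays, 23 HNF4A targets were lower and 13 higher (median -0.12). Of the C/EBP targets, 17 were then lower and 7 higher (median -0.12).

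Targets of LRH-1 were split, with 7 higher and 6 lower of 13 tested and 0 called. Their median was 0.12, or -0.13 without wild-type replicate 1 and 0.01 without the filter on dim genes. Nr0b2, which encodes the repressor SHP and is a target of both LRH-1 and FXR, was at 11.05, 10.38 and 11.08 in knockout, against 10.17, 10.50 and 10.06 in wild-type livers. The difference was 0.59 with overlap at 1 liver of each group (limma unadjusted p = 0.0405, adjusted p = 0.772). Cyp7a1, the rate-limiting enzyme of bile acid synthesis, was at 7.60, 9.12 and 7.98 in knockout and 8.63, 10.27 and 8.27 in wild-type livers, a difference of -0.82 (interval -2.07 to 0.43), which lay between -1.26 and -0.21 without 1 liver. Cyp8b1, which sets the type of bile acid made, differed by -0.14, and the sign turned without knockout replicate 1 or wild-type replicate 2. Fads2 differed by 0.43 (limma adjusted p = 0.796), or by 0.69 without wild-type replicate 3.

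Of the genes induced through CAR or PXR, 17 were higher and 11 lower among 28 tested, with a median of 0.11 and 0 called. Cyp2b10, the classic CAR target, was at 9.79, 8.11 and 9.06 in knockout, against 5.63, 7.86 and 7.66 in wild-type livers. Every knockout liver was above every wild-type liver, and the difference was 1.94 (3.83-fold, limma adjusted p = 0.746), with 1.77 and 2.14 on its other probe sets, which may share signal with near-identical Cyp2b genes. Without wild-type replicate 1 it was 1.23. Wild-type replicate 1 was lowest in both Cyp2b10 and Nr1i3, whereas the highest liver was knockout replicate 1 for Cyp2b10 and knockout replicate 3 for Nr1i3. Cyp2c37, a cytochrome P450 gene, had the largest difference of the list, on the other side of 0. It was at 9.36, 4.16 and 5.53 in knockout, against 10.66, 10.40 and 10.80 in wild-type livers. All knockout livers were lower but far apart from each other, and the difference was -4.27 (interval -6.72 to -1.82, limma adjusted p = 0.652). Without knockout replicate 1, limma called it (-5.78, adjusted p = 0.000856) among 0.0599% of all tested genes. Cyp3a11, the classic PXR target, differed by 0.19 (interval -0.24 to 0.61). Abcc2, a canalicular transporter gene on the FOXA list as well, was lower in every knockout liver (-0.80, adjusted p = 0.76), or -0.51 without knockout replicate 2.

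**Figure D4:**
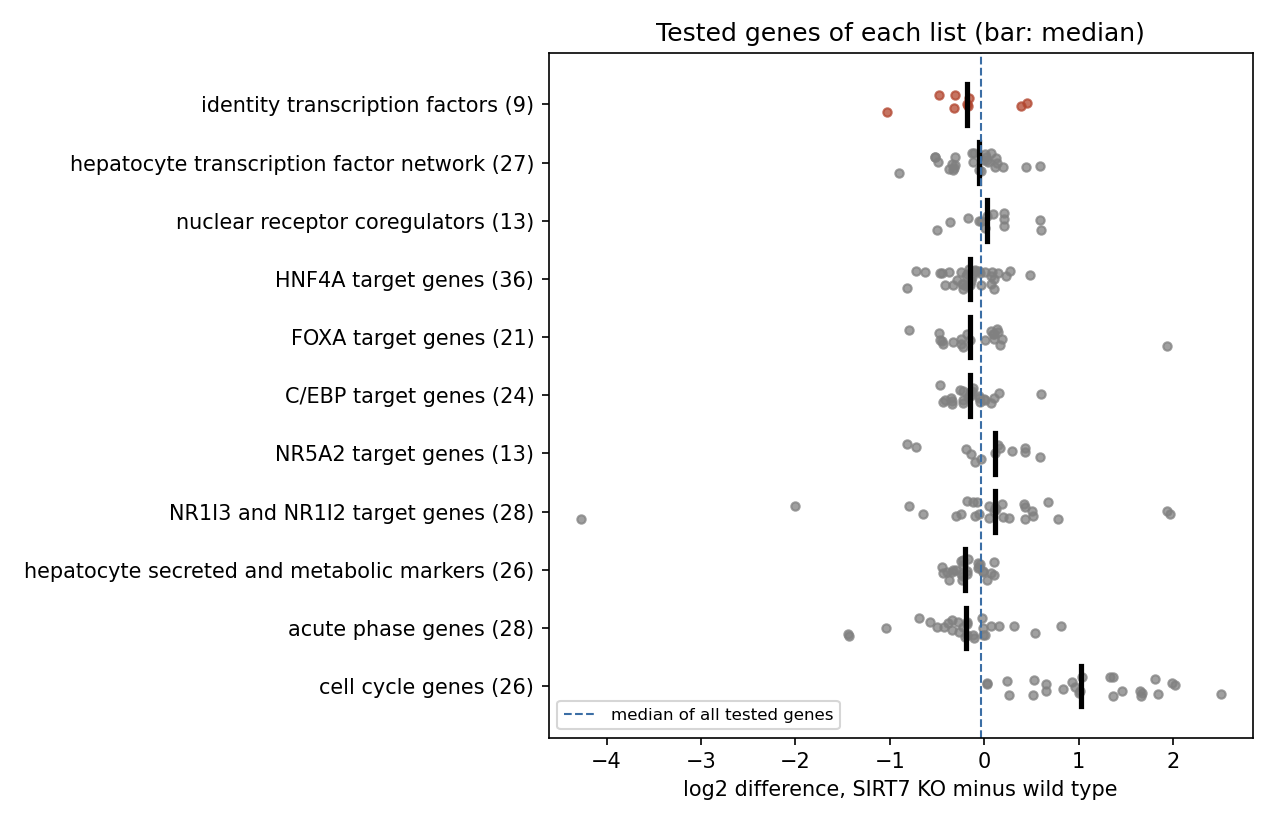
Log2 difference of SIRT7 knockout minus wild type (x axis) for each tested gene of 11 lists, with the number tested in brackets, a black bar at each median and a dashed line at the median of all tested genes (-0.03). The 9 identity factors (red) have a median of -0.18, between those of the HNF4A targets (-0.15) and the hepatocyte markers (-0.20), while the cell cycle genes lie at 1.02. Some genes are on several lists.

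Hepatocyte markers had mostly negative differences, as did the factors. Of 26 tested markers, 22 were lower and 4 higher in knockout livers, with a median of -0.20, differences from -0.45 to 0.10 and 0 called. After quantile normalization of the arrays 18 were lower and 8 higher, with a median of -0.14. Their median deviation was -0.25, -0.26 and 0.20 in knockout and -0.06, 0.13 and 0.22 in wild-type livers, so knockout replicate 3 lay with the wild-type livers here. The summed marker level, as log2 of the sum, was 17.06 to 17.50 in knockout and 17.23 to 17.48 in wild-type livers. Alb differed by -0.23 (interval -0.75 to 0.29), and between -0.452 (without knockout replicate 3) and -0.107 (without knockout replicate 1) without 1 liver. Ttr, the transthyretin gene, differed by 0.10 (interval -0.30 to 0.50). Besides Tdo2, the smallest p belonged to Apob (-0.45, limma adjusted p = 0.789) and Hp (-0.34, adjusted p = 0.796). Apob differed by -0.70 without knockout replicate 3.

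Genes of DNA replication and mitosis, which C/EBP alpha is known to restrain, were higher in 26 of 26 tested members (median 1.02), and limma called 0 of them. Their summed level was 12.94 to 13.25 in knockout and 11.99 to 12.78 in wild-type livers. Their median deviation was 0.58, 0.59 and 0.47 in knockout and -0.94, -0.93 and 0.31 in wild-type livers, so wild-type replicate 3 lay near the knockout livers. The smallest p belonged to Rrm2 (0.93, limma adjusted p = 0.544), Mcm6 (1.65, adjusted p = 0.652) and Ccna2 (1.84, adjusted p = 0.652). Without wild-type replicate 3 limma called 9 of the 26, all higher, and 0 of the identity factors, where it called 0.455% of all tested genes (0.36% as higher). Kupffer cell and macrophage markers were higher in 11 of 13 (median 0.21, or 0.08 with 9 higher without knockout replicate 1), with summed levels of 13.57 to 13.72 in knockout and 13.48 to 13.62 in wild-type livers. Stellate cell markers were lower in 10 of 15 (median -0.08), with sums of 12.72 to 12.94 and 12.85 to 12.99. Endothelial markers were higher in 10 of 15 (median 0.16, or -0.11 without knockout replicate 1), with sums of 12.22 to 12.48 and 12.21 to 12.45. The part of these cell types and of the cell cycle genes in the values of the factors was not tested.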

How the data were processed

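The authors deposited 1 log2 expression value per probe set and array, for which the submitters' processing notes name GCRMA 2.20.0 and R 2.11.1. The log2 scale was read from the values (0.841 to 13.969), and the sources do not describe the GCRMA settings. Because GCRMA estimates background from probe sequences and removes it, differences between dim values are not proportional to RNA amounts. The values carry no detection call, and the number of arrays limits the precision.

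Of 22626 probe sets, 20380 had 1 symbol in the platform annotation, and 0 of the 691 with several symbols named a member. Genes with a mean log2 value under 4 were left out, which left 8343 genes. The 2 groups were tested against each other by limma 3.58.1 under R 4.3.3 (linear model with empirical Bayes variances, 2-sided, Benjamini-Hochberg adjustment over all tested genes), without a replicate block. The fitting code was first tested on simulated data with known changes. Probe sets were also fitted on their own. Intervals are 95% confidence intervals of the difference, knockout minus wild type, and errors of means are SD.

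The members and the 18 gene lists (411 entries, 347 on the array) were chosen with earlier results of these data known, so lists are described by counts and medians only. The rule for named genes took every member, Sirt7 and 13 further genes. It also took up to 3 genes with the smallest p of each list except the markers of non-hepatocyte cells. A gene that the rule names is not reported here. The alternatives were other filters, probe set rules and scalings, array weights, an intensity trend, a replicate block and leaving out each array. Sequences came from RefSeq (GRCm38.p6), in which all 9 genes matched.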

Additional observations from a re-analysis of the deposited data

How the results depend on the processing

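The 9 factors were refitted under 15 alternatives each, 135 values in all, of which 129 kept their direction and their side of the threshold. Several alternatives could not change a difference and could move only its p-value. These were the filters, each probe set on its own, the intensity trend and the replicate block. For a factor with 1 probe set, the mean of its probe sets could not change it either. The count of 129 is therefore no measure of stability. With the mean of all probe sets of a gene the sign turned for Hnf4a (0.217) and Cebpb (0.035), and the number of called genes over the whole array was 1. For Cebpb that mean takes in a probe set under the filter. Cebpb also turned without knockout replicate 1 (0.116) and without wild-type replicate 2 (0.255), and lay between -0.619 and 0.255 without 1 array. Array weights called 1748 genes over the whole array, 78 genes of the lists and 2 of the factors, Foxa3 (-0.553, limma adjusted p = 0.0359) and Cebpa (-0.526, adjusted p = 0.0331), with a median of -0.491 over the 9. That fit gave knockout replicate 2 a weight of 6.12 and wild-type replicate 2 a weight of 2.54, against 0.31 to 0.887 for the other arrays, so it rests mostly on 1 liver of each group. An intensity trend called 4 genes over the whole array. Without 1 array, the number of called genes over the whole array was 1 to 38, that of list genes 0 to 9 and that of the factors 0, and the median of the 9 lay between -0.382 and -0.148. The labels give both groups the replicate numbers 1 to 3. Same-numbered livers did not deviate together (correlations over genes of -0.089, -0.091 and -0.194), and no knockout liver correlated best with its own number. The fit with a replicate block called 2 genes over the whole array and 0 of the factors. The 95% interval reached 0.458 to 1.04 to either side of the difference for the 9 factors, which is the precision that 3 arrays a group give. Without 1 array, an alternative for genes outside the 9 that was chosen after seeing the data, the sign turned for Cebpd (-0.65 to 0.173), Cyp8b1 (-0.38 to 0.183), Nr1h4 (-0.114 to 0.099), Onecut1 (-0.077 to 0.434) and Rxra (-0.122 to 0.164).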

Other observations

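Coregulators through which the nuclear receptors act were also measured. Of 13 tested, 8 were higher and 5 lower in knockout livers (median 0.03), and limma called 0. Crebbp, the gene of the acetyltransferase CBP, was at 8.74, 8.90 and 9.06 in knockout, against 9.54, 9.43 and 9.24 in wild-type livers, with no overlap (-0.50, limma adjusted p = 0.76). Ncoa3, a steroid receptor coactivator gene, differed by -0.37 (adjusted p = 0.796).

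Among bZIP relatives of the C/EBP genes, 3 were higher and 5 lower of 8 tested, with 0 called. Dbp, a clock-controlled gene, was at 7.37, 6.56 and 6.36 in knockout and 6.16, 6.16 and 6.05 in wild-type livers (0.64, or 0.34 without knockout replicate 1). Tef, its close relative, differed by 0.59 (0.38 without knockout replicate 1) and Atf4, the integrated stress response factor gene, by -0.39. Of 12 fetal liver markers 4 were tested, with 3 higher, 1 lower and 0 called. Igf2bp3 was at 7.18, 6.97 and 6.56 in knockout, against 5.46, 3.48 and 6.96 in wild-type livers, so that wild-type replicate 3 lay among the knockout livers. The difference was 1.61, or 0.70 without wild-type replicate 2 and 2.435 without wild-type replicate 3. Afp, the alpha-fetoprotein gene, differed by -0.33, or by -0.01 without wild-type replicate 1. Mycn differed by 0.63 (limma adjusted p = 0.794), or by 0.404 without knockout replicate 1 and 1.065 without knockout replicate 2.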
